A study of Mus musculus with 4 samples.

Results

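Solute carriers are membrane proteins that move small molecules into and out of cells, and 10 of them that are known from the barrier and fibroblast layers of the meninges are followed here through lesioned mouse brain. They were chosen by name, with earlier results of these data known. They are 10 of 33696 genes counted, beside 384 other genes with a solute carrier symbol. The members are Slc6a12 (ENSMUSG00000030109), Slc6a13 (ENSMUSG00000030108), Slc6a20a (ENSMUSG00000036814), Slc7a11 (ENSMUSG00000027737), Slc7a14 (ENSMUSG00000069072), Slc16a12 (ENSMUSG00000009378), Slc22a6 (ENSMUSG00000024650), Slc22a8 (ENSMUSG00000063796), Slc26a7 (ENSMUSG00000040569) and Slco4a1 (ENSMUSG00000038963). All 10 were counted above the minimum of 25 unique molecular identifiers (UMIs) in lesional fibroblast-like nuclei.

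Nuclei were isolated from brains of adult mice at 21 days post-injury (dpi) after photothrombosis, in which light on the skull after a dye injection leaves a small injury of the cortex. The library labelled control came from mice given as WT, and the library labelled cKO from Col1a2(creER); Cxcl12(flox) mice, in which tamoxifen-induced Cre acts in cells that express Col1a2 and is meant to delete the chemokine gene Cxcl12 from fibroblasts. Tissue of 1 male and 1 female mouse was pooled in each genotype, and lesion and parenchyma nuclei were tagged and captured together as 1 library per genotype. All mice were injured, so no uninjured brain was compared. Which of the controls described in the study's methods were used (Cre-negative or flox-heterozygous, with or without tamoxifen) is not given in the labels.

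The meninges consist of the dura and, beneath it, the leptomeninges, which are the arachnoid and the pia. Arachnoid barrier cells are joined by tight junctions and carry transporters that clear organic anions, drugs and metabolites from cerebrospinal fluid, while fibroblasts of the arachnoid and pia take up amino acids, betaine and γ-aminobutyric acid (GABA). After a cortical lesion, fibroblasts of meningeal and perivascular origin fill the scar, and their states keep features of the layer that they resemble.

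The 4 matrices held 23489 barcodes, of which 21743 nuclei were kept. Lesional nuclei numbered 8095 in the control library and 7933 in the cKO library, with medians of 2962 and 2975 UMIs, and the 2877 and 2838 parenchymal nuclei had medians of 15915 and 16648 UMIs. Between 1 and 22 barcodes were shared by matrices of different libraries. Fibroblast-like nuclei made up 8287 of the lesional nuclei, 4197 in the control and 4090 in the cKO library. All 6 fibroblast markers were detected in them and summed to 3887 CPM, the summed UMIs of a gene scaled to 1000000 UMIs of all genes. The nuclei of 1 mouse were recognised by Xist or by Y-linked UMIs, and 9.75% and 11.3% of lesional nuclei carried both kinds. Cxcl12 itself was at 106 CPM in the control and 215 CPM in the cKO library, a log2 ratio of 1.02 (0.93 to 1.11), so the targeted gene was higher under the cKO label. Which exons are floxed was not stated, and 3′ counts check nothing about it, so every direction between libraries is given as labelled. With 1 library per genotype there was no test. Intervals in brackets are exact 95% intervals, which cover counting error only.

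The sequences just before the start sites of 6 members are shown here because these members carry the patterns described afterwards: Slc6a20a marked the leptomeningeal-like states, Slc7a11 and Slc16a12 were highest in 1 of them, the neighbours Slc22a8 and Slc22a6 were highest in a small finer state, and Slco4a1 differed between the libraries. Each run gives the 250 bases before the first listed start in RefSeq on GRCm38.p6, which is another build than the GRCm39 of the counts, and is written 5′ to 3′ on the strand of the gene. Capitals mark matches to any of 4 motifs on either strand.
Slc6a20a promoter, chr9:123678833-123679082, minus strand: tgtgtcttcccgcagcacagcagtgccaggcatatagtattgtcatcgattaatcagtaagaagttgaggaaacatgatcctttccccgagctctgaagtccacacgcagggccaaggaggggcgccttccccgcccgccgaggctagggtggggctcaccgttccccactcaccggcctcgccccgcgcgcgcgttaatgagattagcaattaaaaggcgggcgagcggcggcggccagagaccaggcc
Slc7a11 promoter, chr3:50443614-50443863, minus strand: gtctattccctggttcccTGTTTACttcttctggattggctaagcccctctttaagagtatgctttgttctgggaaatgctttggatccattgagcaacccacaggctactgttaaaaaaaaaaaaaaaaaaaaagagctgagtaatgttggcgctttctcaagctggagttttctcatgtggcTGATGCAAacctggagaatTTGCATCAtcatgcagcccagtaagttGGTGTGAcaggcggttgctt
Slc16a12 promoter, chr19:34747329-34747578, minus strand: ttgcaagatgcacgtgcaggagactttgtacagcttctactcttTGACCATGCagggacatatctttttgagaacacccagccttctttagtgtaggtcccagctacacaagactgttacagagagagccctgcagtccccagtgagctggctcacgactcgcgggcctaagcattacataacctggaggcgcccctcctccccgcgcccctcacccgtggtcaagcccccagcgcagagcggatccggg
Slc22a8 promoter, chr19:8592932-8593181, plus strand: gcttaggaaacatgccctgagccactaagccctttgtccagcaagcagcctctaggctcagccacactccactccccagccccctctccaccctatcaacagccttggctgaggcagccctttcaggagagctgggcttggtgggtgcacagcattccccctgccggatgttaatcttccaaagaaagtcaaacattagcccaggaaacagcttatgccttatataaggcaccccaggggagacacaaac
Slc22a6 promoter, chr19:8617746-8617995, plus strand: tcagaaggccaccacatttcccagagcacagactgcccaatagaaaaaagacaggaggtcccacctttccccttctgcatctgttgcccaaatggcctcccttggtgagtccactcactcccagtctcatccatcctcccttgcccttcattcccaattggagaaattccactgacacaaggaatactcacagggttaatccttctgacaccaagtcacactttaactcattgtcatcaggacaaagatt
Slco4a1 promoter, chr2:180455995-180456244, plus strand: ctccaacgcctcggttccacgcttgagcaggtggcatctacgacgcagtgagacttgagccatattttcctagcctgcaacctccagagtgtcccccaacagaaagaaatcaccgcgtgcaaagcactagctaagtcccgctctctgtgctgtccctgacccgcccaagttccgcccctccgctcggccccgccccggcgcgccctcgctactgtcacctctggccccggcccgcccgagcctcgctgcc
Promoters were listed for 9 of the 10 members, 16 in all, and the search covered 250 bases before and 50 after each start. The amino acid response element TGATGCAA, a site used when amino acids are short, was present in 0.895% of 32851 promoters, and 2 promoters, that of Slc7a11 among them, held 2 copies. The copies of Slc7a11 began 66 bases before the start as written and 47 bases before it as the reverse complement. The forkhead motif GTAAACA, found in 3.65% of all promoters, began 232 bases before the start of Slc7a11 as the reverse complement, and the T-box motif GGTGTGA, found in 3.98%, began 20 bases before it. The antioxidant response element TGACNNNGC occurred in 12.4% of all promoters. It began 206 bases before the start of Slc16a12, again 23 bases after it as the reverse complement, and 82 bases before the first start of Slc6a13. No motifs overlapped in these windows, and a match is a string of letters and not a measured site.

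Of the 10 members, 9 were at least 4-fold higher in fibroblast-like nuclei than in all other lesional nuclei together, a fold passed by 4.4% of the 19070 genes tested. The median log2 ratio was 3.54 over the members and 0.0028 over all genes. The members were left out of the genes used for clustering, but were chosen with earlier results of these data known. The comparison therefore remains a description, and the share over all genes is no measure of enrichment. When each nucleus was instead classed singly by the marker list it scored highest on, which kept 34.6% of these nuclei in the class, 0 members passed this fold. The log2 ratio was 4.01 (3.40 to 4.76) for Slc22a6, 3.83 (3.63 to 4.05) for Slc6a13, 3.71 (3.62 to 3.81) for Slc6a20a, 3.68 (3.17 to 4.28) for Slc6a12, 3.60 (3.47 to 3.74) for Slc26a7 and 3.48 (3.26 to 3.72) for Slc22a8. The intervals of these 6 overlapped, so they could not be ordered. Slco4a1 at 2.92 (2.48 to 3.43), Slc16a12 at 2.88 (2.61 to 3.16) and Slc7a11 at 2.62 (2.53 to 2.70) had lower ratios, and the interval of Slco4a1 reached into those of Slc22a6, Slc6a12 and Slc22a8. Slc7a14 went the other way, at -0.97 (-1.10 to -0.83), but stood at 0.23 when every nucleus was given equal weight, and 29.7% of its lesional UMIs lay in fibroblast-like nuclei against 83.5% to 93.1% for the other 9.

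**Figure D1:**
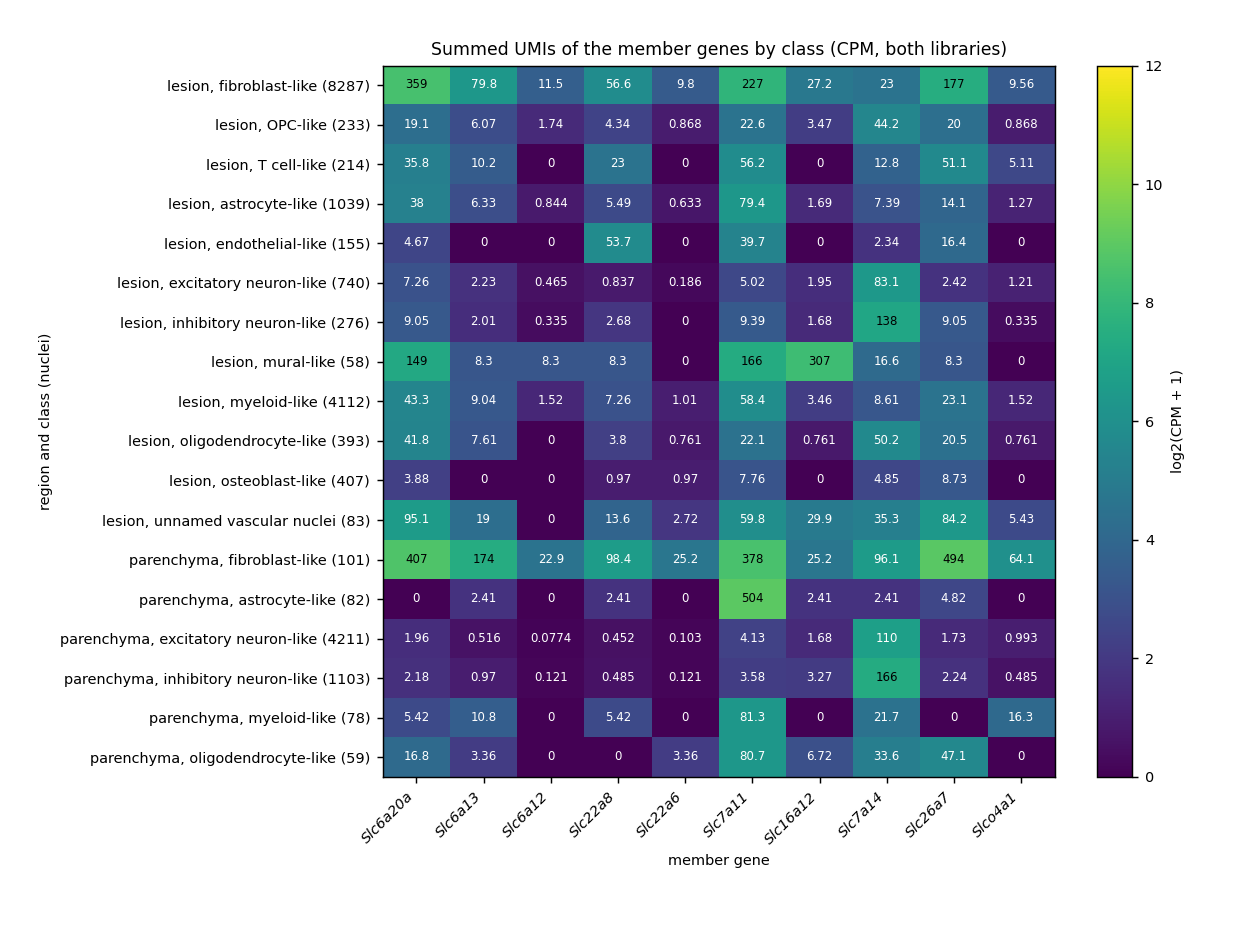
Heat map of log2(CPM + 1) of the 10 member genes (columns) in cell classes of lesion and parenchyma with at least 50 nuclei (rows), both libraries together. Smaller classes, such as parenchymal mural-like and endothelial-like nuclei, are not shown. The fibroblast-like rows are bright for most members, while Slc7a14 is brightest in the neuron-like rows, Slc7a11 in parenchymal astrocyte-like nuclei and Slc16a12 in mural-like nuclei.

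Free RNA also gives UMIs to nuclei that do not express a gene. In parenchymal excitatory-neuron-like nuclei, at a median of 17867 UMIs, the share with a UMI was 0.119% to 4.63% for the 9 members other than Slc7a14. In lesional fibroblast-like nuclei, at a median of 3074 UMIs, it was 2.73% to 29.4% for the same 9. After thinning each nucleus to 1000 UMIs, which left out 13 and 212 nuclei, the shares were 0% to 0.357% in the former and 0.991% to 16.6% in the latter. Lesional myeloid-like nuclei, which share the dissection with the fibroblasts and had a median of 2291.5 UMIs, showed more of them. Their shares with a UMI were 0.292% to 5.89%, and 0.0257% to 2.83% after thinning, which left out 219 nuclei, with Slc7a11 at 2.83%, Slc6a20a at 1.62% and Slc26a7 at 1.52%. The fibroblast markers summed to 822 CPM in these myeloid-like nuclei. Each of the 9 members had a higher thinned share in fibroblast-like than in myeloid-like nuclei, at 10.2%, 16.6% and 13.3% for the same 3, although most fibroblast-like nuclei showed none of a given member.

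Lesional fibroblast-like nuclei fell into 4 states, each called here by a gene that led it. The state led by Npr3, which took the dural-like name, held 2789 nuclei, and the state led by Lama3, named late inner-like, held 2126. Both remaining states were leptomeningeal-like: the larger, of 2516 nuclei, was led by Igfbp3, Trpm3 and Ranbp3l, and the smaller, of 856 nuclei, by Gm30613, Dcdc2a and Col4a6. They are called the Trpm3-led and the Col4a6-led state. The name rested on 3 of the 7 leptomeningeal markers in the Trpm3-led state and 4 in the Col4a6-led state. Aldh1a2, Lama1, Ranbp3l and Lamc3 were higher in both than in the other states. Foxc2 was at 30.7 and 8.20 CPM in them, against 29.6 and 18.9 CPM in the Npr3-led and Lama3-led states. In the same order Crabp2 was at 6.37 and 1.86 against 5.19 and 8.38 CPM, and Tbx18 at 294 and 409 against 260 and 221 CPM. The arachnoid barrier marker list was only partly present: the keratins Krt8 and Krt18 had 1 and 3 UMIs over all lesional fibroblast-like nuclei, while Cdh1, Cldn11, Klf5 and Abcg2 had 992, 2728, 3296 and 5025. The choroid plexus list, for the epithelium that shares several of these transporters, was also partly present. Its markers Ttr, Folr1 and Otx2 had 2, 4 and 0 UMIs, but Clic6 and Kl had 619 and 193. Clic6 was highest in the Trpm3-led state, at 56.9 CPM, and Kl in the Col4a6-led state, at 53.3 CPM.

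Of the 10 members, 8 were at least 4-fold higher in the leptomeningeal-like states than in the other states, against 1.81% of 16053 genes, and 1, Slc26a7, was at least 4-fold lower, against 1.51%. The median log2 ratio was 4.06 over the members and 0.0208 over all genes. The choice of the members limits this comparison in the same way. Slco4a1 was also lower in the leptomeningeal-like states, at a log2 ratio of -1.80 (-2.36 to -1.32). The members thus split into 8 that were higher in the leptomeningeal-like states, called the leptomeningeal members, and 2 that were lower there. The 8 differed among themselves in which leptomeningeal-like state held them.

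**Figure D2:**
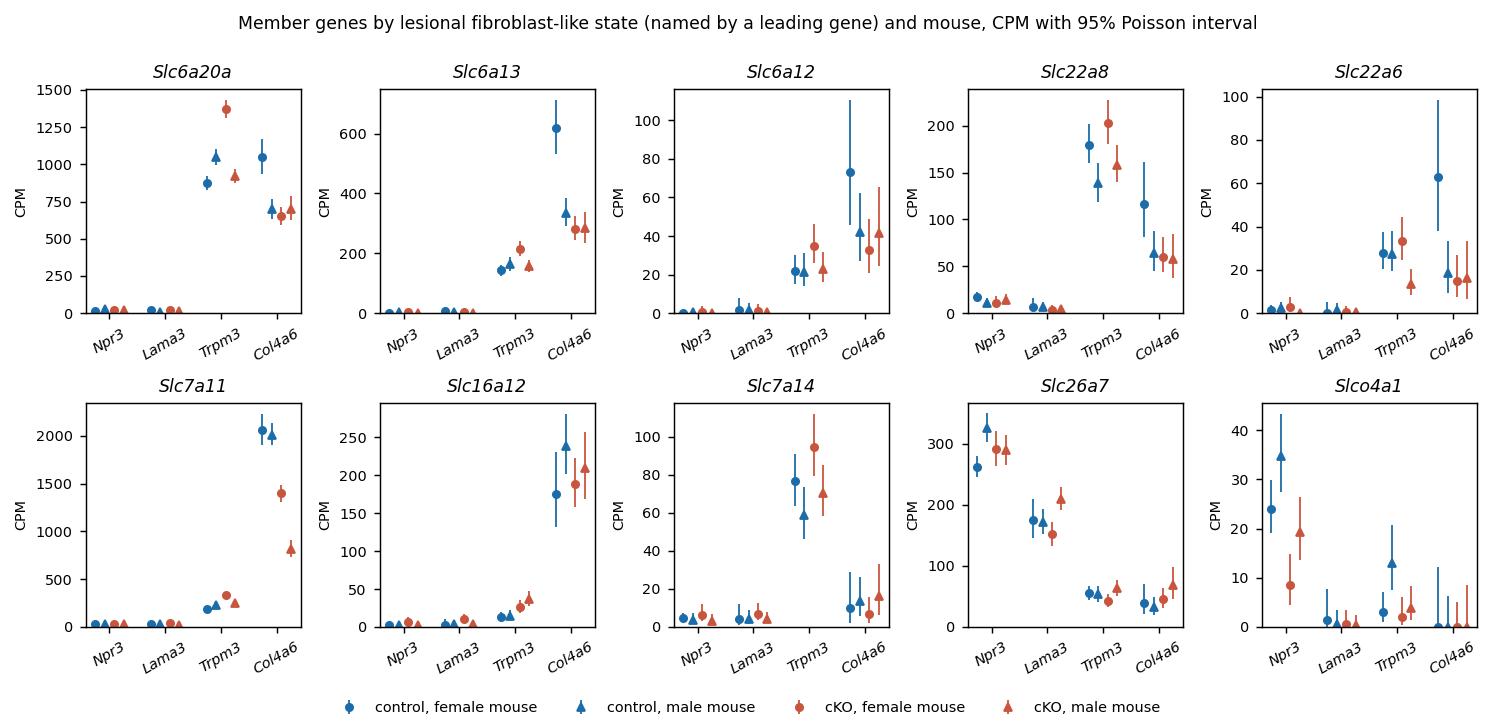
CPM of each member gene (1 panel per gene) in the 4 lesional fibroblast-like states, with 1 point per mouse and exact 95% Poisson intervals. Slc7a11 and Slc16a12 peak in the Col4a6-led state, Slc7a14 and Slc22a8 in the Trpm3-led state, and Slc26a7 and Slco4a1 in the Npr3-led state.

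The transporters of betaine, GABA and imino acids belong to the sodium-dependent Slc6 family. Slc6a13 encodes GAT2, a carrier of GABA and taurine, and was at 368 CPM (345 to 392) in the Col4a6-led state and 166 CPM (157 to 175) in the Trpm3-led state. It was at 4.74 and 3.68 CPM in the Npr3-led and Lama3-led states, whose intervals overlapped. Slc6a12, which encodes the betaine and GABA transporter BGT1, took the same order at 49.2 CPM (41.2 to 58.4), 24.9 CPM (21.5 to 28.8), 0.55 and 0.89 CPM, again with no order between the last pair. Slc6a20a encodes SIT1, a carrier of proline and other imino acids, and was at 1037 CPM (1014 to 1060) in the Trpm3-led state, 804 CPM (770 to 839) in the Col4a6-led state, 30.1 CPM in the Npr3-led state and 15.5 CPM in the Lama3-led state. All 4 levels of Slc6a20a were apart by their intervals.

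Slc6a12 and Slc6a13 lie next to each other on chromosome 6 in the gene order of RefSeq. Among the leptomeningeal-like nuclei, Slc6a13 was found in 82.3% (76.9 to 86.9) of the 243 nuclei with a Slc6a12 UMI and in 24.2% (22.7 to 25.7) of the 3129 without, at median depths of 2898 and 2637 UMIs. This was not particular to the pair: Slc6a20a was at 81.9% and 49.2%, Slc7a11 at 69.1% and 28.6%, and Slc22a8 at 45.3% and 24.5%. Slc16a12 was at 30.9% and 9.91%, and Slc22a6 at 15.6% and 5.21%. Slc7a14, at 8.64% and 9.94%, and Slco4a1, at 0% and 1.05%, were not more frequent. Slc26a7 went the other way, at 2.06% (0.67 to 4.74) and 10.5% (9.49 to 11.7). Both leptomeningeal-like states were pooled here, although they differed in these levels. Slc6a20b, a close copy that is the neighbour of Slc6a20a, was at 52.2, 48.1, 3.01 and 2.41 CPM in the Trpm3-led, Col4a6-led, Npr3-led and Lama3-led states. Reads shared by the copies cannot be told apart from these counts, so the values of Slc6a20a and Slc6a20b are uncertain to that extent.

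The amino acid carriers of the Slc7 family divided between the leptomeningeal-like states. Slc7a11 encodes xCT, the exchanger that imports cystine for glutathione synthesis and exports glutamate, and stood at 1548 CPM (1501 to 1595) in the Col4a6-led state, 240 CPM (229 to 251) in the Trpm3-led state, 37.9 CPM (34.3 to 41.7) in the Npr3-led state and 29.1 CPM (25.4 to 33.1) in the Lama3-led state. A Slc7a11 UMI was seen in 59.7% of nuclei of the Col4a6-led state. Its promoter, shown above, is the one with both amino acid response elements. Slc3a2, the heavy chain that xCT needs to reach the membrane, was at 45.5 CPM in fibroblast-like and in other lesional nuclei, with a log2 ratio of 0.00 (-0.11 to 0.11). Slc7a14, which encodes a lysosomal protein of the cationic amino acid transporter type, was at 72.3 CPM (66.4 to 78.7) in the Trpm3-led state and 10.8 CPM (7.24 to 15.5) in the Col4a6-led state. It was at 4.64 and 5.59 CPM in the Npr3-led and Lama3-led states, which did not differ beyond counting error.

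Slc16a12 encodes MCT12, a monocarboxylate family member that carries creatine, and was at 199 CPM (182 to 216) in the Col4a6-led state. It was at 23.6 CPM (20.3 to 27.4) in the Trpm3-led state, 5.34 CPM in the Lama3-led state and 3.46 CPM in the Npr3-led state, of which the last pair overlapped. Its order over the leptomeningeal-like states was that of Slc7a11 and the reverse of that of Slc7a14.

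The organic anion transporters OAT3 and OAT1, which take drugs, toxins and metabolites out of cerebrospinal fluid, are encoded by Slc22a8 and Slc22a6. Among coding genes these lie next to each other on chromosome 19. Slc22a8 was at 166 CPM (157 to 175) in the Trpm3-led state, 79.1 CPM (68.8 to 90.4) in the Col4a6-led state, 13.1 CPM (11.1 to 15.4) in the Npr3-led state and 4.83 CPM (3.42 to 6.63) in the Lama3-led state. Slc22a6 was at 24.7 CPM (21.3 to 28.5) and 26.8 CPM (21.0 to 33.8) in the Trpm3-led and Col4a6-led states, which could not be ordered, and at 1.91 and 0.76 CPM in the Npr3-led and Lama3-led states.

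The members that were lower in the leptomeningeal-like states than in the other states were an anion exchanger and an organic anion carrier. Slc26a7, an exchanger of chloride and bicarbonate, was at 290 CPM (280.2 to 300.4) in the Npr3-led state and 183 CPM (173 to 192) in the Lama3-led state, against 53.2 CPM (48.1 to 58.7) and 49.2 CPM (41.2 to 58.4) in the Trpm3-led and Col4a6-led states. It had a UMI in 51.2% of nuclei of the Npr3-led state. Slco4a1 encodes OATP4A1, a carrier of thyroid hormones and other organic anions, and was at 21.3 CPM (18.7 to 24.2) in the Npr3-led state, 4.91 CPM (3.46 to 6.77) in the Trpm3-led state and 0.89 CPM (0.36 to 1.83) in the Lama3-led state. No Slco4a1 UMI was counted in the Col4a6-led state, where 3 UMIs, taken as the limit of a count of 0, would be 1.12 CPM and the exact interval reached 1.38 CPM.

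A finer clustering of the same nuclei into 9 states, chosen after the data had been seen, placed several members in a small group. The state led by Nnat, also leptomeningeal-like, held 304 nuclei, 142 in the control and 162 in the cKO library, and had the highest level of 5 members. Slc6a20a was at 3254 CPM (3139 to 3371) there with a UMI in 96.4% of nuclei, Slc6a13 at 665 CPM (614 to 719), Slc22a8 at 461 CPM (419 to 507), Slc6a12 at 130 CPM (108 to 156) and Slc22a6 at 111 CPM (90.7 to 134). The next state for Slc22a8 reached 136 CPM and the next for Slc22a6 27.1 CPM. After thinning to 1000 UMIs, 97.0% of the nuclei of the Nnat-led state had at least 1 member and 49.8% had at least 3, against 39.8% and 5.76% of all lesional fibroblast-like nuclei.

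The Dcdc2a-led finer state, of 877 nuclei, held the highest Slc7a11, at 1532 CPM (1486 to 1579), and Slc16a12, at 197 CPM (181 to 215). The Nnat-led state came next for both, at 874 and 118 CPM. The state led by Ocln, a tight junction gene, took the arachnoid barrier-like name with 1273 nuclei and held the highest Slc7a14, at 98.8 CPM (88.6 to 110.0). In that barrier-like state Slc6a20a was at 903 CPM and Slc22a8 at 136 CPM, but Slc6a12 at only 4.99 CPM (2.91 to 7.98) and Slc16a12 at 6.45 CPM. The members therefore did not peak together in the Ocln-led state. Its name rested on 3 of the 6 arachnoid barrier markers, at a mean log2 fold of 1.27. The finer state led by Slco4a1 and Ccn3 also had 3 of the 6 up, at 0.41, below the naming threshold. In the coarser clustering Abcg2 was at 268 CPM in the Npr3-led and 125 CPM in the Trpm3-led state. Cdh1, Cldn11 and Klf5 were higher in the Trpm3-led state. Barrier markers were therefore not confined to the Ocln-led state. Slc7a14 and the claudin gene Cldn11 are neighbours in gene order.

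Slc26a7 was highest in 3 unnamed finer states, at 329 CPM (315 to 344) in the state led by Slco4a1 and Ccn3, 307 CPM (291 to 325) in the state led by Nav2 and 257 CPM (241 to 273) in the state led by Kctd8. The intervals of the first pair overlapped. Slco4a1 was at 34.6 CPM (30.1 to 39.4) in the state of 1556 nuclei that it led, although it took no part in the clustering, and at most 5.87 CPM (3.58 to 9.06) in the other 8.

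**Figure D3:**
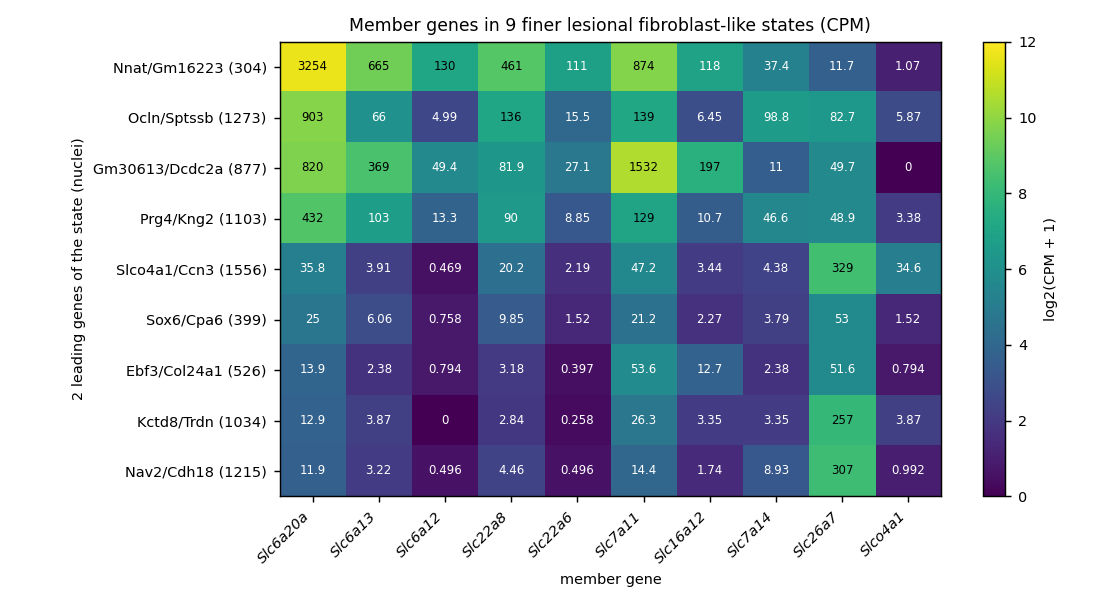
Heat map of log2(CPM + 1) of the member genes (columns) in the 9 finer lesional fibroblast-like states (rows, named by leading genes). The Nnat-led row is brightest for Slc6a20a, Slc6a13, Slc22a8, Slc6a12 and Slc22a6, the Dcdc2a-led row for Slc7a11 and Slc16a12, and the Ocln-led row for Slc7a14.

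Likeness between genes was described by Pearson's r of log2(CPM + 1) over 16 sums, 1 for each state in each mouse. These points share libraries, states and depth, and 11592 genes were compared. Slc6a12 and Slc6a13 were each other's nearest gene, at r = 0.99, followed by Slc30a10 and Dnajc6 for both. Genes near to Slc6a20a included Zkscan2 (0.98) and C1qtnf7, and those nearest to Slc22a8 were Abca4 (0.99), Diaph2 and the dicarboxylate carrier Slc13a3. Slc7a11 was nearest to Dcdc2a (0.98), Kl and Lama1, and Slc16a12 to Col18a1 (0.98) and Dcdc2a, so both shared Dcdc2a. Slc22a6 was nearest to Robo1 (0.97), Cmbl and Sox13, and Slc7a14 to Gm5820 (0.95), Ppp1r1a and Nadk2. Slc26a7 was nearest to Atp1b1 (0.98), Adamtsl3 and Shisa3, and Slco4a1 to Ahcyl2 (0.97), Vps13a and Nr3c2. Between Slc26a7 and the 8 leptomeningeal members r ran from -0.97 to -0.71.

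Between the libraries, 1 of the 10 members was at least 2-fold lower in cKO, as were 0.81% of 16053 genes, and 0 were at least 2-fold higher, as were 1.16%. The member that was lower was Slco4a1. Its 204 UMIs in the control library gave 14.2 CPM (12.3 to 16.2) and its 74 UMIs in the cKO library 5.05 CPM (3.96 to 6.33), a log2 ratio of -1.48 (-1.89 to -1.10). The control mice were at 14.3 CPM (female) and 16.6 CPM (male) and the cKO mice at 3.11 and 7.27 CPM, so both cKO mice lay below both control mice. The ratio was -2.16 between the female and -1.19 between the male mice.

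The shares of the states moved with this result. The state led by Slco4a1 and Ccn3 held 22.3% of control and 15.1% of cKO fibroblast-like nuclei, and the Npr3-led state of the coarser clustering 38.3% and 28.9%. With the makeup of the states held fixed, the log2 ratio of Slco4a1 was -1.05. Within the finer state it was at 42.7 CPM in control and 21.8 CPM in cKO, a log2 ratio of -0.96 (-1.44 to -0.52), and within the Trpm3-led state at 6.98 and 2.89 CPM (-1.24, -2.44 to -0.21), where the mice overlapped. These ratios were smaller than that over all fibroblast-like nuclei, and the part of the state shares in the difference was not tested.

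**Figure D4:**
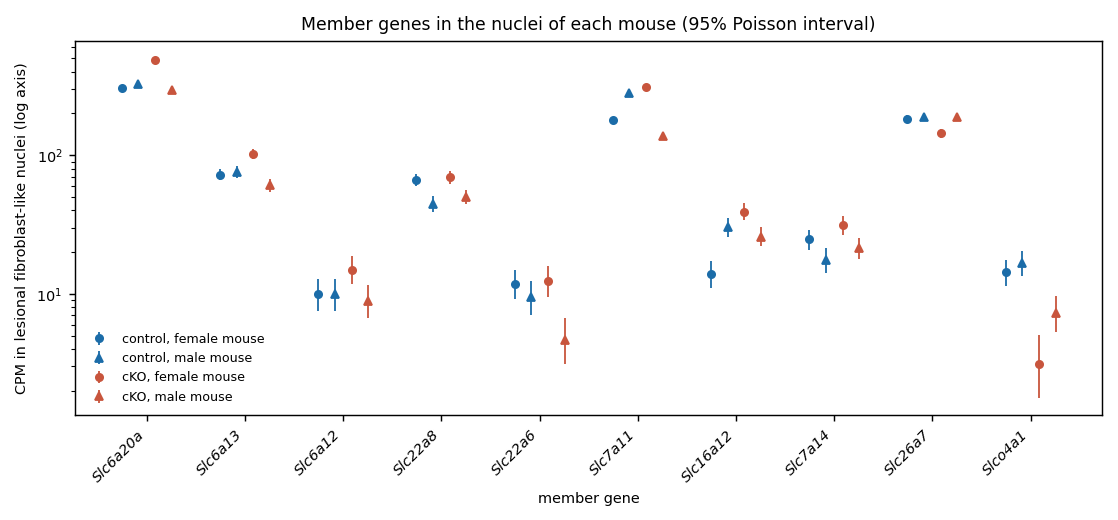
CPM of each member gene in lesional fibroblast-like nuclei of the 4 mice, on a log axis, with exact 95% Poisson intervals. Slco4a1 is the only member for which both cKO mice, at 3.11 and 7.27 CPM, lie below both control mice, at 14.3 and 16.6 CPM.

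Over all genes, both cKO mice lay below both control mice for 20.2% of the genes and above them for 20.4%. Among the members these counts were 1, Slco4a1, and 0, so the mice of the other 9 overlapped. Slc16a12 had the next largest log2 ratio, at 0.51 (0.30 to 0.72), with 22.4 CPM in control and 31.9 CPM in cKO. Its control mice were at 13.9 CPM (female) and 30.2 CPM (male) and its cKO mice at 39.2 and 25.8 CPM, so the control mice differed from each other more than the libraries did. Slc6a20a, at 331 and 386 CPM, had a log2 ratio of 0.22 (0.16 to 0.28). Its values were 306 and 326 CPM in the control mice, female first, and 485 and 294 CPM in the cKO mice, so that only the cKO female lay above the control mice. The ratios of Slc7a14 and Slc6a12 were 0.29 each, those of Slc6a13 and Slc22a8 0.09 and 0.08, those of Slc26a7 and Slc7a11 -0.08 and -0.11, and that of Slc22a6 -0.28 (-0.63 to 0.07).

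Slc7a11 was at 236 CPM in control and 218 CPM in cKO but varied widely between mice, from 178 CPM in the female to 282 CPM in the male control mouse and from 313 CPM in the female to 137 CPM in the male cKO mouse. The share of nuclei in the Col4a6-led state, which held most Slc7a11, was 6.73% and 10.8% in the control female and male and 15.7% and 7.97% in the cKO female and male. The level and the share stood in the same order over the 4 mice, apart from a swap of the lowest pair. Slc6a13 varied likewise, at 72.6 and 75.5 CPM in the control mice and 103 and 60.7 CPM in the cKO mice.

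Within the states the counts of members differed. In the Npr3-led state both cKO mice lay below both control mice for 1 of the 8 members tested, Slco4a1, against 17.5% of 13389 genes, and above them for 0, against 18.8%. Slco4a1 was at 24.0 and 34.7 CPM in the control female and male there and at 8.50 and 19.3 CPM in the cKO mice, a log2 ratio of -1.01 (-1.47 to -0.59). In the Trpm3-led state 0 of 10 members lay lower, against 21.1% of 12489 genes, and 3 lay higher, against 16.5%. These were Slc6a12, Slc7a11 and Slc16a12.

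The largest of these differences was that of Slc16a12 in the Trpm3-led state, at 12.8 and 14.5 CPM in the control female and male and 25.8 and 36.3 CPM in the cKO mice, a log2 ratio of 1.35 (0.88 to 1.87). Slc7a11 was at 184 and 232 CPM in the control mice and 330 and 254 CPM in the cKO mice (0.41, 0.28 to 0.55). In the Col4a6-led state 5 of the 9 members tested lay lower in both cKO mice, against 17.2% of 9704 genes, and 1 lay higher, Slc26a7, against 16.6%. The 5 were Slc6a12, Slc6a13, Slc7a11, Slc22a6 and Slc22a8. Over the libraries the counting intervals overlapped for Slc6a12, at 57.9 (44.9 to 73.5) in control and 42.6 CPM (32.9 to 54.4) in cKO. They also overlapped for Slc22a6, at 35.4 (25.4 to 48.1) and 20.3 CPM (13.8 to 28.9), and for Slc22a8, at 85.5 (69.5 to 104) and 74.1 CPM (61.1 to 89.1). The 5 were correlated with each other over the sums by state and mouse, at r from 0.77 to 0.99, so they are not separate results.

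In the Col4a6-led state Slc7a11 was at 2066 and 2013 CPM in the control female and male and at 1398 and 817 CPM in the cKO mice, a log2 ratio of -0.72 (-0.81 to -0.63). Slc6a13 was at 618 and 336 CPM in the control mice and 282 and 283 CPM in the cKO mice (-0.45, -0.63 to -0.26). Slc26a7 was at 39.9 and 32.0 CPM in the control mice and 45.2 and 69.1 CPM in the cKO mice (0.85, 0.30 to 1.44). Slc7a11 therefore stood lower in cKO in 1 leptomeningeal-like state and higher in the other, with a ratio near 0 over all fibroblast-like nuclei. The difference between the states was not tested, and the mice of a genotype shared 1 library.

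Outside fibroblasts, several members were also counted in other classes. Slc7a14 was at 166 CPM (160 to 172) in parenchymal inhibitory-neuron-like nuclei and 110 CPM (108 to 112) in excitatory-neuron-like nuclei, with a UMI in 71.6% and 67.2% of them. The lesional counterparts were lower, at 138 CPM (125 to 152) and 83.1 CPM (77.7 to 88.7), log2 ratios of lesion over parenchyma of -0.26 (-0.42 to -0.12) and -0.40 (-0.51 to -0.30). In parenchymal excitatory-neuron-like nuclei it was at 109 CPM in control and 111 CPM in cKO, so the genotypes were alike within 0.04 on the log2 scale (-0.03 to 0.10).

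Slc7a11 was at 504 CPM (438 to 577) in 82 parenchymal astrocyte-like nuclei, with a UMI in 65.9% of them, and at 79.4 CPM (71.5 to 87.8) in 1039 lesional astrocyte-like nuclei. The log2 ratio of lesion over parenchyma was -2.67 (-2.91 to -2.41), and the difference was present in both libraries, at 523 and 106 CPM in control and 488 and 55.4 CPM in cKO. The 6 astrocyte markers were all detected in the parenchymal nuclei, and summed to 10377 CPM against 3873 CPM in the lesional ones. The fibroblast markers summed to 116 and 581 CPM and the markers of oligodendrocyte precursors to 154 and 2034 CPM, parenchyma first, and their part in the lower lesional level was not tested. Between the libraries, Slc7a11 had a log2 ratio of -0.93 (-1.25 to -0.63) in lesional astrocyte-like nuclei.

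Slc16a12 was higher in mural-like nuclei, the pericytes and smooth muscle of vessels, than in fibroblast-like nuclei as a whole. It was at 307 CPM (216 to 423) from 37 UMIs in 58 lesional nuclei and at 417 CPM (255 to 644) from 20 UMIs in 21 parenchymal nuclei, intervals that overlapped. Slc6a20a was at 1210 CPM (918 to 1564) in the same parenchymal nuclei and at 149 CPM (88.5 to 236) in the lesional ones. Slc6a13 and Slc22a8 were at 125 CPM (45.9 to 272) and 146 CPM (58.7 to 301) in these parenchymal nuclei. In the lesional ones each was at 8.30 CPM (0.21 to 46.2), from 1 UMI. All 7 mural markers were detected in the parenchymal mural-like nuclei and summed to 6047 CPM, 3 of the 6 fibroblast markers to 313 CPM and 4 of the 7 leptomeningeal markers to 584 CPM. In the lesional ones the fibroblast markers summed to 1411 CPM and the leptomeningeal markers to 224 CPM. Their part in these levels was not tested. Slc22a8 was at 271 CPM (135 to 484), from 11 UMIs, in 21 parenchymal endothelial-like nuclei and at 53.7 CPM (34.1 to 80.6) in 155 lesional ones.

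The 101 fibroblast-like nuclei of the parenchyma, 51 from the control and 50 from the cKO library, allowed a comparison of regions. Slco4a1 was at 64.1 CPM (42.6 to 92.6) in them and 9.56 CPM (8.47 to 10.8) in lesional fibroblast-like nuclei, a log2 ratio of lesion over parenchyma of -2.77 (-3.31 to -2.13), and Slc26a7 at 494 and 177 CPM (-1.48, -1.67 to -1.27). For both genes the lower lesional level was seen in each library, at -1.98 and -3.93 for Slco4a1 and -1.38 and -1.58 for Slc26a7, control first. Slc6a13 was also higher in the parenchyma in both libraries, at 174 against 79.8 CPM. Slc7a14 stood at 96.1 against 23.0 CPM, but at 161 CPM in the control and 28.1 CPM in the cKO parenchyma, and Slc7a11 took opposite directions, with 116 CPM in the control and 652 CPM in the cKO parenchyma against 236 and 218 CPM in the lesion. The ratio of Slc16a12 was 0.05 (-0.73 to 1.12), from 11 parenchymal UMIs, and that of Slc6a20a -0.19 (-0.40 to 0.04), with 0.29 in the control and -0.53 in the cKO library. Marker sums moved with region as well: the fibroblast list was at 1160 CPM in the parenchymal and 3887 CPM in the lesional nuclei, the dural list at 6697 and 4697 CPM and the arachnoid barrier list, 4 of whose 6 markers were seen in the parenchyma, at 1110 and 414 CPM. Foxp1 alone gave 3594 CPM of the lesional dural sum and was at 993 CPM in other lesional nuclei, so that sum says little about dural likeness. The part of these marker sums in the regional differences was not tested.

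The members were set beside the rest of their family. Of the other 384 solute carrier symbols, 297 had enough UMIs for the fibroblast comparison, and 24 were at least 4-fold higher and 53 at least 4-fold lower in fibroblast-like nuclei, with a median log2 ratio of 0.02. In the comparison of states 12 of 266 were at least 4-fold higher and 10 at least 4-fold lower in the leptomeningeal-like states, and between the libraries 2 were at least 2-fold higher and 2 at least 2-fold lower in cKO. Among 29 named transporters of meninges and the blood-cerebrospinal fluid barrier, 8 were at least 4-fold higher in fibroblast-like nuclei and 2 at least 4-fold lower, and 0 passed 2-fold between the libraries. By state, 6 of the 29 were at least 4-fold higher and 3 at least 4-fold lower in the leptomeningeal-like states.

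The highest of these 29 were the sulfate carrier Slc13a4, at a log2 ratio of 3.74, the organic cation transporter Slc22a2 at 3.72, the toxin extruder Slc47a1 at 3.56 and Slc16a9, a monocarboxylate family carrier, at 3.02. The lowest were the organic anion carrier Slco2b1 at -3.23, the glucose transporter Slc2a1 at -2.92, Slco1a5 at -1.82 and the amino acid transporter Slc7a8 at -1.25. By state, Slc47a1 was at 1207 CPM in the Npr3-led state and 32.8 CPM in the Col4a6-led state, the side of Slc26a7 and Slco4a1. The dicarboxylate carrier Slc13a3 was at 104 and 68.6 CPM in the Trpm3-led and Col4a6-led states and 7.10 CPM in the Npr3-led state, the side of the 8 leptomeningeal members.

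**Figure D5:**
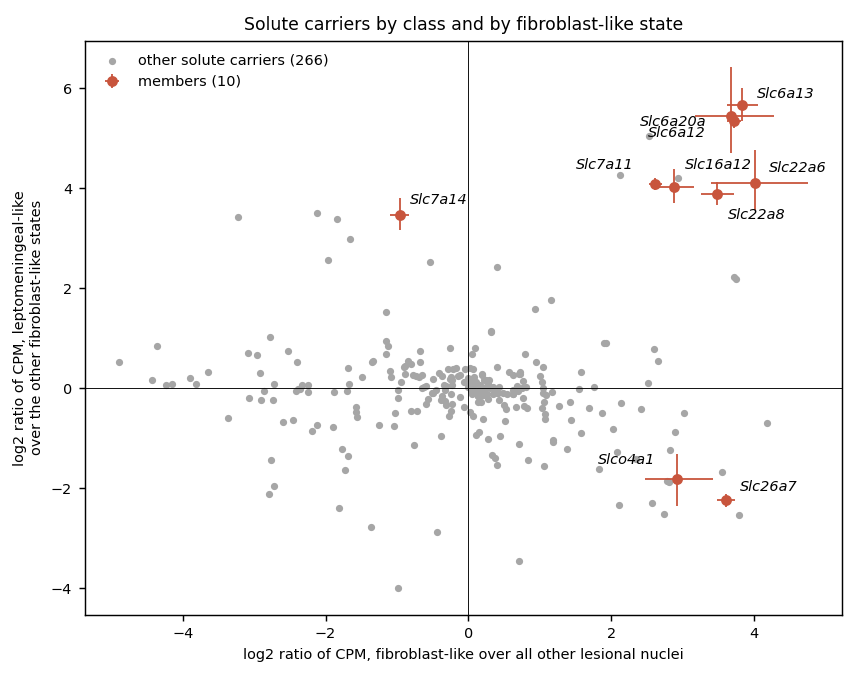
Log2 ratio of CPM in fibroblast-like over all other lesional nuclei (horizontal axis) against the log2 ratio in leptomeningeal-like over the other fibroblast-like states (vertical axis) for the members, with 95% counting intervals, and for other solute carriers (grey points). The 8 leptomeningeal members lie at the top, 7 of them at the upper right, Slc7a14 at the upper left, and Slc26a7 and Slco4a1 at the lower right.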

How the data were processed

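The authors processed the reads with Cell Ranger 9.0.0 on GRCm39, per the labels, and deposited 4 filtered matrices of UMI counts, 1 per region and genotype, as whole numbers with no normalization. Doublets were not removed. Barcodes in the outer 2.5% of UMIs or genes or the highest 2.5% of mitochondrial share were removed. Counts were scaled to 10000, and 3000 variable genes, 30 components and 20 neighbours entered Leiden clustering (resolution 0.25, scanpy 1.11.5, Python 3.11.15, scipy 1.17.1) without the members, Cxcl12 or sex-linked genes. Fibroblast-like nuclei were clustered again with 2000 genes at 0.25 and 0.5. Clusters were named from marker lists (at least 3 markers up, mean log2 fold 0.5 or more), and arachnoid barrier and dividing lists were not used for the first naming. Scrublet scores served only as an alternative. The tag libraries were not analysed here.

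UMIs were summed per class as CPM with Poisson intervals. Log2 ratios had 0.5 added to each sum and needed 25 UMIs, with binomial intervals checked on simulated counts. With 1 library per genotype no test was made, and called means past 2-fold or 4-fold. Named are all members, the 3 genes most like each (at least 5 CPM; some are not reported here), the 4 highest and lowest of 29 listed transporters and 3 leading genes per state. Slc6a20b and Slc3a2 were added after their values were seen. The members and lists were chosen with earlier results of these data known, and the finer states, the naming thresholds and the motifs after the data were seen. For the ratio between libraries 13 alternatives were tried, and for the fibroblast-like ratio 11. Promoters came from RefSeq GRCm38.p6.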

Additional observations from a re-analysis of the deposited data

Results flagged for a closer look

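For 6 members the cKO female stood above the control female and the cKO male below the control male, with 1 mouse of each sex per genotype, and this difference was not tested. The share of all genes with this pattern was not counted, so the 6 cannot be read as a result about the members. For 3 of them the counting intervals of both ratios left out 0. The log2 ratio of cKO over control in lesional fibroblast-like nuclei between the females and then between the males was 0.50 and -0.32 for Slc6a13, 0.67 and -0.15 for Slc6a20a, and 0.81 and -1.04 for Slc7a11. For the other 3 the interval of 1 ratio held 0, at 0.59 and -0.17 for Slc6a12, 1.49 and -0.23 for Slc16a12, and 0.08 and -1.0 for Slc22a6. The share of nuclei in the Col4a6-led state moved with these values, at 6.73% and 15.7% in the control and cKO females and 10.8% and 7.97% in the control and cKO males, and its part in the ratios was not tested. Sex and individual mouse cannot be told apart.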

How the results depend on the processing

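Of the alternatives, 13 for the ratio between libraries and 11 for the fibroblast-like ratio, most left the counts of members as given. In the male mice alone 3 members were at least 2-fold lower in cKO (Slco4a1, Slc7a11 and Slc22a6), and in the female mice alone 1 was at least 2-fold higher (Slc16a12). The share of all genes past 2-fold was not counted for single mice, so these counts cannot be read as results about the members. With nuclei classed singly by their highest marker list, 0 members were at least 4-fold higher in fibroblast-like nuclei. The log2 ratio was no longer positive for Slc6a12 (-3.29e-06), Slc6a20a (-0.28), Slc7a11 (-0.0060), Slc22a6 (-0.20) and Slco4a1 (-0.037). No counting intervals were computed for this setting, and the values of Slc6a12, Slc7a11 and Slco4a1 lay too near 0 to show a turn in direction. That setting placed 34.6% of the main fibroblast-like nuclei in the class, with 1413 called osteoblast and 1355 mural, and the cause was not tested. With the highest Scrublet scores removed the fibroblast-like ratios were larger, up to 5.93 for Slc6a20a. The ratio between libraries took the opposite sign in at least 1 alternative for 8 members, Slc7a14 and Slco4a1 being the exceptions. That of Slco4a1 stayed negative in all 13 alternatives, from -2.16 in the female mice alone to -1.05 with state makeup held fixed. No paired analysis was possible because each genotype has 1 library and no result comes from a test. Ratios within each sex are values of 1 mouse against another. Levels under 1 CPM rest on fewer than 10 UMIs in the states, and with 1 library per genotype the spread between libraries is unknown.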
